A study of Mus musculus with 2 samples.

Results

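miR-126, miR-221 and miR-222 are microRNAs (miRNAs) of the vessel wall, and their strands were followed in small RNA from heart mitochondria of 1 library of mice treated with STZ (streptozotocin, which destroys insulin-secreting cells and so makes mice diabetic) and 1 control library. Every entry was taken whose name, after the species prefix, begins with miR-126, miR-126a, miR-221 or miR-222 followed by an arm. This gave 7 of the 1018 entries in each deposited table, of which 851 carry a miRNA name. The 7 entries are both arms of each under human names (hsa-miR-126-3p, hsa-miR-126-5p, hsa-miR-221-3p, hsa-miR-221-5p, hsa-miR-222-3p and hsa-miR-222-5p) and 1 mouse-named entry, mmu-miR-126a-3p. They held 31500 reads, or 4.46% of all reads, in the STZ library and 34304 reads, or 6.75%, in the Control library. The STZ group is labelled by treatment alone and the Control group likewise. Both are mouse heart mitochondria, and the labels are silent on strain, age, STZ dose, time after STZ and pooling of animals. The study concerns diabetic cardiomyopathy and Ago2, the Argonaute protein that carries miRNAs.

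The STZ library held 706860 reads and the Control library 508182. Levels are in RPM, reads of an entry per 1000000 reads assigned to the listed small RNAs, so that 1 read equalled 1.41 RPM in the STZ library and 1.97 RPM in the Control library. With 1 library per group there was no replicate check and no p-value. "Higher" and "lower" compare these libraries, not the conditions, and the 95% intervals hold the counting error of reads alone. Amplified reads with no molecular identifier are not separate molecules, so the intervals can be too narrow even for that error. Nearly all reads stood under human names in this mouse study, 99.3% in the STZ library and 99.2% in the Control library, and the prefix was not read as the origin of the reads. Muscle-specific miR-1-3p ranked first in both libraries of this heart material. The organelle label has no miRNA marker and was not checked.

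A miRNA is cut from a hairpin precursor whose 2 arms, 5p and 3p, can each be loaded into Argonaute, and it pairs with messenger RNAs mainly through its seed, bases 2 to 8. miR-126 is known as the miRNA of endothelial cells, is transcribed with the endothelial gene Egfl7, and its 3p strand represses Spred1 and Pik3r2, which restrain signalling by the vascular growth factor VEGF. miR-221 and miR-222 come from neighbouring hairpins, are found in endothelial and smooth muscle cells, and repress the receptor gene Kit and the cell cycle inhibitor gene Cdkn1b.

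The RefSeq sequences for mouse on GRCm38.p6 included mature strands for 4 of the 6 arms, and they are shown because the seed sets which strands could pair with the same messages. The seed is in capitals, each strand is written 5′ to 3′, and the human sequences were not compared.
miR-126a-3p: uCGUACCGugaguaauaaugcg
miR-221-3p: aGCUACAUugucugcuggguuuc
miR-222-3p: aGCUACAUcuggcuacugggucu
miR-221-5p: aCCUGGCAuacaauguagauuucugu
miR-221-3p and miR-222-3p share their seed, GCUACAU. Their first 8 bases are identical, and 11 of the 23 bases match when they are aligned from the 5′ end without gaps. Among the 1679 mature mouse names in that table, 3 have this seed (0.179%), the third being miR-1928. The seeds of miR-126a-3p and miR-221-5p each occur in 1 name.

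The hairpins are shown with the mature strands above in capitals, to place the arms that are compared further on.
Mir126a hairpin: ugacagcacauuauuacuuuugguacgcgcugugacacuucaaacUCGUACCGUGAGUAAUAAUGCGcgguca
Mir221 hairpin: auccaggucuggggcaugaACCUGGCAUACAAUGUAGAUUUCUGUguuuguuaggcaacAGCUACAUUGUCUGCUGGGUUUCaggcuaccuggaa
Mir222 hairpin: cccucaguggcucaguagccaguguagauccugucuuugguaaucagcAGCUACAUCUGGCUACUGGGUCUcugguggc
On GRCm38, Mir126a lies on the plus strand at chr2:26591357-26591429, inside Egfl7 (chr2:26580014-26593120) on the same strand. In the GENCODE annotation the Egfl7 exon that covers it belongs to a retained-intron transcript, and the predicted gene Gm20532 also spans it. Mir126b is annotated on the opposite strand within the same stretch. Mir221 (chrX:19146294-19146388) and Mir222 (chrX:19146893-19146971) lie on the minus strand, 504 bases apart, with no other gene annotated over either. The submitters' processing notes name GRCm39, so these positions describe the reference and not the authors' alignments.

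miR-126-3p was lower in the STZ library, by 1.57-fold, and lost more of its share of reads than any other named miRNA. It stood at 37447 RPM (26470 reads) in the STZ library and 58615 RPM (29787 reads) in the Control library. That was 3.74% of reads (Wilson 95% interval 3.70 to 3.79) in the STZ library, where it ranked 8 among named miRNAs, and 5.86% (5.80 to 5.93) in the Control library, where it ranked 5. The STZ to Control ratio was 0.639 (exact 95% interval 0.628 to 0.650). Its share differed by -2.12 percentage points, and the next largest losses were those of miR-143-3p (-0.972) and miR-133a-3p (-0.896), while miR-1-3p had the largest gain (4.33). In the order of levels, its neighbours in the STZ library were miR-30c-5p above (40905 RPM) and miR-30e-5p below (32741 RPM), and in the Control library miR-143-3p above (60612 RPM) and miR-30d-5p below (49396 RPM). The Poisson intervals of its level, 36998 to 37901 RPM in the STZ library and 57951 to 59284 RPM in the Control library, overlapped none of these.

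The opposite strand, miR-126-5p, which represses the Notch pathway gene Dlk1 in endothelial cells, was lower by less. It had 6042 RPM (4271 reads) in the STZ library and 7515 RPM (3819 reads) in the Control library, a ratio of 0.804 (0.769 to 0.840). Both libraries thus had the same order, with the 3p strand above the 5p strand. The mouse-named entry of miR-126a-3p had 1 read in the STZ library and 0 in the Control library, where a floor of 3 reads equals 5.90 RPM and the upper bound of the Poisson interval was 7.26 RPM, so the miR-126-3p reads stood under the human name but for 1.

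Of the miR-221 and miR-222 pair, miR-221-3p was the more abundant in both libraries and the less reduced. miR-221-3p had 835 RPM (590 reads) in the STZ library and 1057 RPM (537 reads) in the Control library, with a ratio of 0.790 (0.702 to 0.889). miR-222-3p had 174 RPM (123 reads) in the STZ library and 291 RPM (148 reads) in the Control library, with a ratio of 0.597 (0.467 to 0.764). These levels put miR-221-3p at rank 64 in the STZ library and 62 in the Control library, and miR-222-3p at rank 123 in the STZ library and 103 in the Control library. The miRNAs next above and next below either of them had overlapping Poisson intervals, such as miR-378i, next above miR-221-3p in the STZ library at 857 RPM (790 to 928, beside 769 to 905 for miR-221-3p).

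The 5p strands of these hairpins, the passenger strands, had low counts and point ratios above 1, with an interval that excluded 1 for miR-221-5p alone. miR-222-5p had 36.8 RPM (26 reads) in the STZ library and 19.7 RPM (10 reads) in the Control library, and the interval of its ratio of 1.87 (0.872 to 4.34) included 1. miR-221-5p had 26.9 RPM (19 reads) in the STZ library and 5.90 RPM (3 reads) in the Control library, a ratio of 4.55 (1.34 to 24.0).

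**Figure D1:**
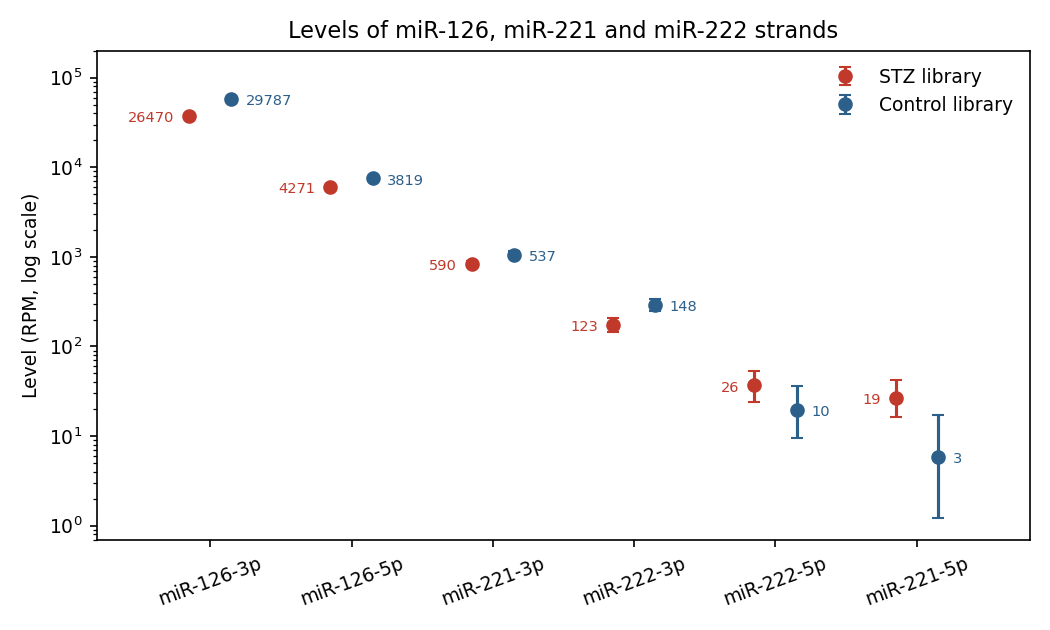
Level in RPM (log axis) of the 6 human-named strands in the STZ and Control libraries, with exact Poisson 95% intervals as bars (within the marker for high levels) and the read count beside each point. The 4 more abundant strands are lower in the STZ library, and the 5p strands of miR-222 and miR-221 are higher there with wide intervals.

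Set against all named miRNAs, a ratio whose interval excluded 1 was common. Of the 6 strands with 20 or more reads, summed over the libraries, 4 had an interval below 1, whereas 33.5% of the 275 named miRNAs with as many reads did. Above 1 lay 1 strand, miR-221-5p, with 32.0% of the 275 there. Deeper miRNAs have narrower intervals, and among the 67 miRNAs with at least 1000 reads 43.3% lay below 1 and 35.8% above, a group in which miR-126-3p, miR-126-5p and miR-221-3p were all below 1. The median log2 ratio of the 4 main strands (both miR-126 arms, miR-221-3p and miR-222-3p) was -0.49, ranging from -0.74 to -0.31, beside a median of -0.01 over the 275. By a 2-fold difference on the scale of log2(RPM + 1), which understates the change of low miRNAs, 0 of the 6 strands were lower (18.5% of the 314 named miRNAs that averaged 10 RPM or more) and 1, miR-221-5p, was higher (17.8%).

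For its abundance, miR-126-3p stood at the edge of the range. Its log2 ratio of -0.65 was the lowest of the 32 miRNAs with 5000 or more summed reads, whose highest was 0.77 and median -0.02. miR-126-5p was in the same group, with 4 of the 32 below it. Among the 67 miRNAs with at least 1000 reads, 4 had a lower ratio than miR-126-3p, 12 a lower one than miR-221-3p and 14 a lower one than miR-126-5p. As these ranks rest on 1 library per group, they describe the libraries only.

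**Figure D2:**
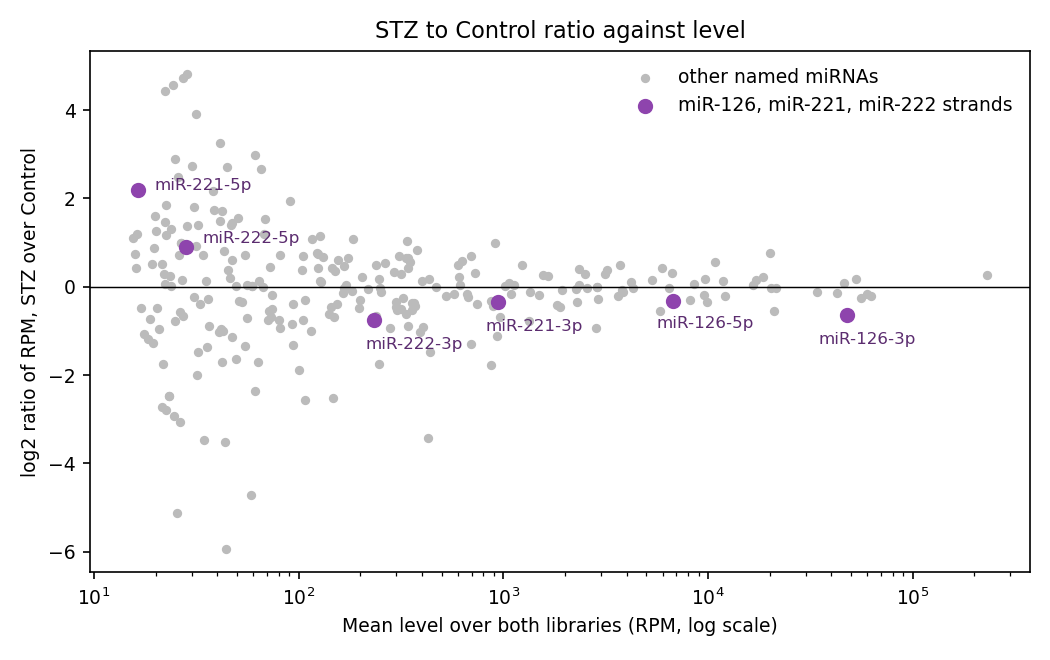
Log2 ratio of RPM, STZ over Control, against the mean level over both libraries (log axis) for 265 named miRNAs with at least 20 reads, leaving out 10 that were at 0 in 1 library. The 3p strands and miR-126-5p lie below 0 at all levels, miR-126-3p at the lower edge of the abundant miRNAs, and the 2 rare 5p strands lie above 0 in the range where the scatter is wide.

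Ratios between the members within a library do not depend on how the libraries were scaled. miR-126-3p had 44.9 reads per read of miR-221-3p in the STZ library and 55.5 in the Control library, a ratio of 0.809 between the libraries (exact 95% interval 0.717 to 0.912). Per read of miR-222-3p it had 215 in the STZ library and 201 in the Control library, and the interval (0.836 to 1.37) included 1. The difference in miR-126-3p was therefore larger than in miR-221-3p, and not distinguishable at this depth from that in miR-222-3p. miR-126-5p followed miR-221-3p closely, at 7.24 reads per read in the STZ library and 7.11 in the Control library (0.897 to 1.15), but not miR-222-3p, at 34.7 in the STZ library and 25.8 in the Control library (1.05 to 1.73).

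The miR-221 to miR-222 ratio was 4.80 (Wilson-based 95% interval 3.95 to 5.82) in the STZ library and 3.63 (3.03 to 4.35) in the Control library. The STZ ratio was 1.32 times the Control ratio, and the exact interval of that odds ratio, 1.00 to 1.74 (lower bound 1.004), only just excluded 1. The separate intervals of the 2 libraries overlapped. Of the 6 pairs among the 4 main strands, 4 had an interval that excluded 1, and no allowance was made for their number.

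In arm use, all 3 precursors held a larger share of 5p reads in the STZ library, with the 3p strand the major arm throughout. The 5p strand took 13.9% of miR-126 reads (Wilson 95% interval 13.5 to 14.3) in the STZ library and 11.4% (11.0 to 11.7) in the Control library. The 3p to 5p ratio of miR-126 was 6.20 in the STZ library and 7.80 in the Control library, an odds ratio of 1.26 toward 5p (exact 95% interval 1.20 to 1.32). For miR-221 the 5p share was 3.12% (2.01 to 4.82) in the STZ library and 0.556% (0.189 to 1.62) in the Control library, with an odds ratio of 5.76 (1.68 to 30.5). The 5p share of miR-222 was 17.4% (12.2 to 24.3) in the STZ library and 6.33% (3.47 to 11.3) in the Control library, with an odds ratio of 3.13 (1.39 to 7.54). The 5p share of miR-222 was above that of miR-221 in both libraries, with intervals that did not overlap.

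A displacement toward 5p was also frequent in other precursors. With a minimum of 20 summed reads for either arm there were 51 precursors, of which 21 (41.2%) had an interval of the odds ratio that excluded 1 toward 5p, and 7 (13.7%) had one toward 3p. Leaving out miR-126, miR-221 and miR-222, these were 18 and 7 of 48. The 25 precursors with 3p as major arm, like these hairpins, included 9 that differed toward 5p and 1 toward 3p. Without miR-126, miR-221 and miR-222, these were 6 and 1 of 22. The 26 with 5p as major arm included 12 toward 5p and 6 toward 3p. Mouse-named miR-486a, with 20 5p and 39 3p reads in the STZ library and 6 and 54 in the Control library, counted as a separate precursor. It differed toward 5p with 3p as its major arm. The far more abundant human-named miR-486 had 5p as its major arm and an interval that included 1. By size of the odds ratio toward 5p, 7 of the 51 exceeded miR-221, 13 exceeded miR-222 and 23 exceeded miR-126. At a minimum of 100 reads on each arm, miR-126 entered and miR-221 and miR-222 did not. There, 7 of 19 precursors (36.8%) differed toward 5p and 3 (15.8%) toward 3p, and 5 exceeded miR-126. Without miR-126 these were 6 and 3 of 18, and 1 of the 8 with 3p as major arm differed toward 5p.

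**Figure D3:**
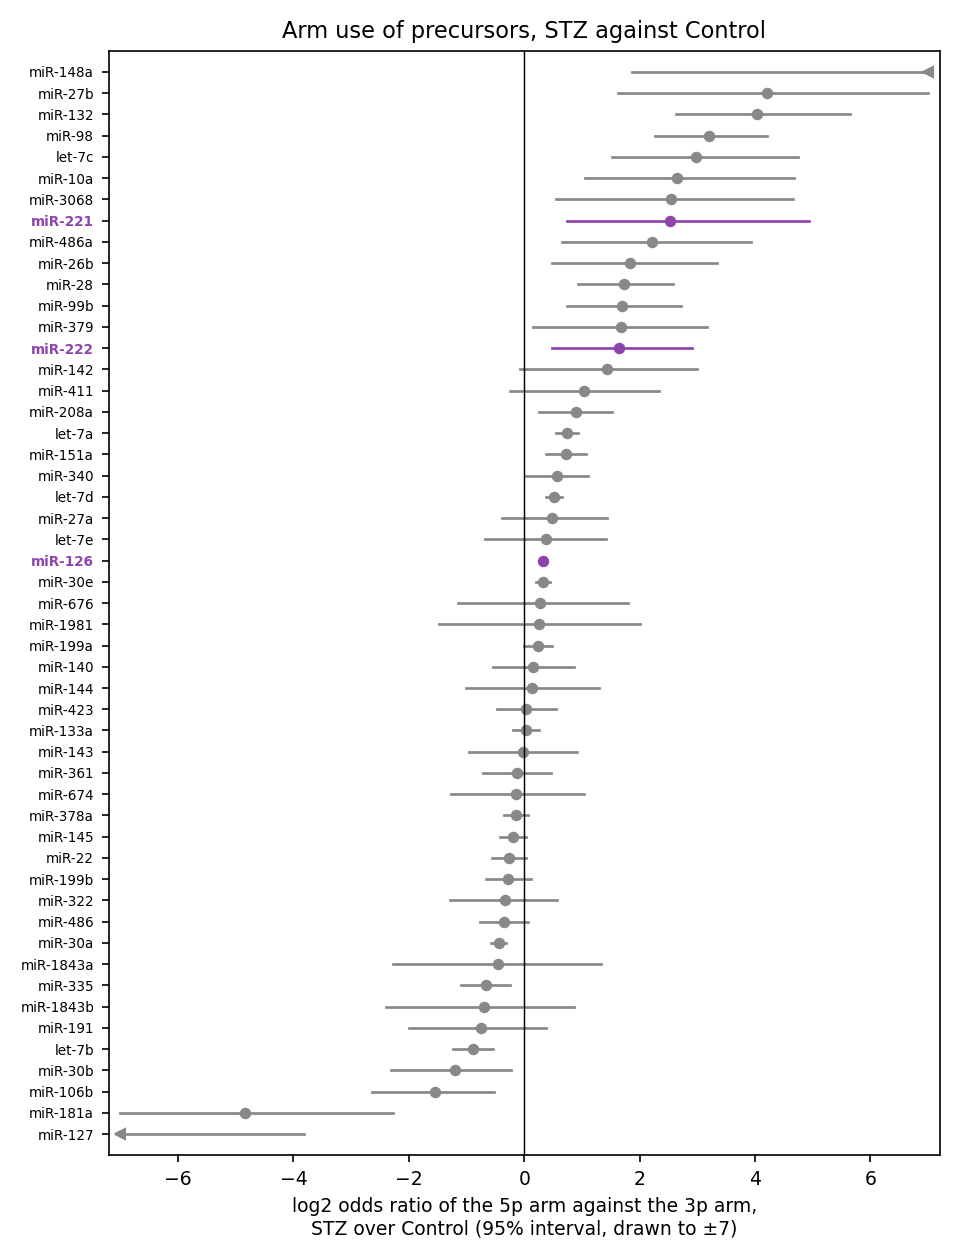
Log2 odds ratio of 5p against 3p reads, STZ over Control, with exact 95% intervals, for the 51 precursors with 20 or more summed reads per arm; intervals are drawn to ±7, and triangles at the edge mark 2 precursors with an arm at 0 in 1 library. miR-221, miR-222 and miR-126 (purple) lie right of 0, toward 5p, among 21 precursors whose intervals do so.

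miR-126-3p was next set against miRNAs of the other cells of the heart, again within each library. Per read of miR-1-3p, the cardiomyocyte miRNA that restrains growth genes, there were 0.148 reads of miR-126-3p in the STZ library and 0.280 in the Control library, a ratio of 0.529 (0.520 to 0.539). With miR-133a-3p, which shares clusters with miR-1, as partner the ratio was 0.738 (0.722 to 0.754). Smooth muscle miR-143-3p gave 0.761 (0.744 to 0.778), its cluster partner miR-145-5p 0.718 (0.642 to 0.802), and miR-21-5p, known from fibroblasts, 0.732 (0.703 to 0.763). Relative to these 5 partners miR-126-3p was thus lower in the STZ library.

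Partners known from blood gave ratios on both sides of 1. Red-cell miR-451a was itself lower, at 1958 RPM in the STZ library and 3727 RPM in the Control library, and there were 19.1 reads of miR-126-3p per read of it in the STZ library and 15.7 in the Control library, a ratio of 1.22 (1.13 to 1.31). Against miR-486-5p, the most abundant member of the erythroid list and added as a partner after the values were seen, the ratio was 0.789 (0.755 to 0.823), below 1 as with the muscle partners. Which cells the miR-486-5p reads came from was not tested. miR-16-5p, abundant in blood and in most tissues, was the partner with a ratio nearest to 1, with 7.93 reads of miR-126-3p per read in the STZ library and 8.43 in the Control library (0.940, 0.894 to 0.989). For miR-221-3p the ratio to miR-1-3p was 0.654 (0.581 to 0.737), also below 1. Its ratio to miR-143-3p was 0.941 (0.835 to 1.06), to miR-133a-3p 0.912 (0.809 to 1.03) and to miR-21-5p 0.906 (0.800 to 1.03), and these 3 intervals included 1, as did that to miR-145-5p (0.754 to 1.04). For miR-222-3p the ratio to miR-1-3p was 0.495 (0.387 to 0.633), to miR-143-3p 0.712 (0.555 to 0.911), to miR-133a-3p 0.690 (0.538 to 0.883), to miR-21-5p 0.685 (0.533 to 0.879) and to miR-145-5p 0.671 (0.511 to 0.880), all below 1. Against blood partners the ratio of miR-221-3p was 1.504 (1.309 to 1.727) with miR-451a and 1.163 (1.023 to 1.322) with miR-16-5p, both above 1. Its interval with miR-486-5p (0.86 to 1.105) included 1. The intervals of miR-222-3p with miR-451a (0.8789 to 1.47) and miR-16-5p (0.6833 to 1.13) included 1. With miR-486-5p the ratio of miR-222-3p was 0.7374 (0.5739 to 0.9464), below 1.

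**Figure D4:**
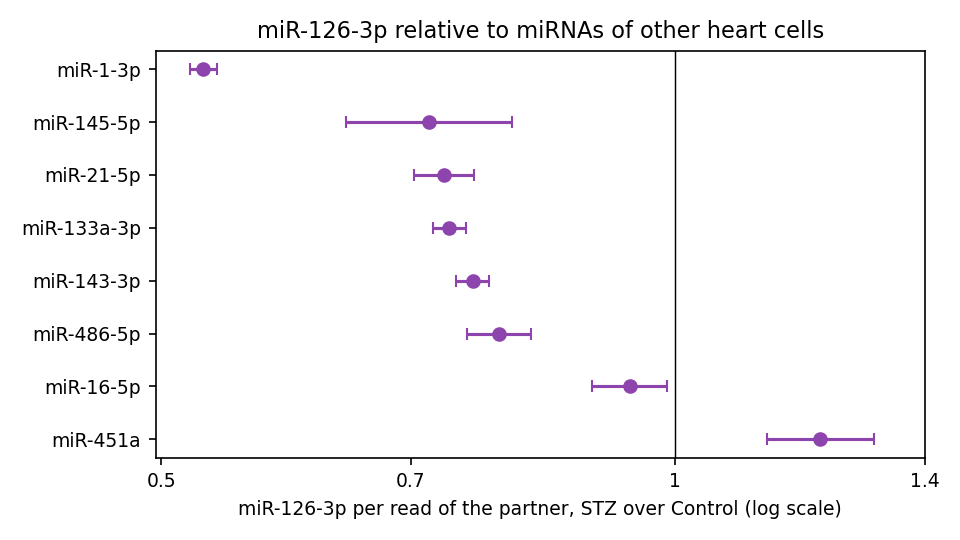
Reads of miR-126-3p per read of a partner miRNA, STZ over Control (log axis), with exact 95% intervals. The ratio is lowest against miR-1-3p (0.529), between 0.718 and 0.761 against the other 4 muscle and fibroblast miRNAs, 0.789 against miR-486-5p, 0.940 against miR-16-5p and above 1 against miR-451a (1.22).

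Lists of miRNAs of other cells are given beside these results, to be read against the 33.5% of all named miRNAs with an interval below 1 and the 32.0% above. The erythroid, leukocyte and liver lists had median ratios below 1, while the cardiomyocyte list lay on the other side. Of 4 erythroid miRNAs, 3 had an interval below 1 and none above, with a median log2 ratio of -0.82 and a summed share of 0.938% of reads in the STZ library and 1.29% in the Control library. Most of that share was miR-486-5p, with 0.733% in the STZ library and 0.905% in the Control library. Its STZ to Control ratio was 0.810, beside 0.525 for miR-451a. The 6 leukocyte miRNAs had 3 below and 1 above (median -0.47, 0.244% in the STZ library and 0.342% in the Control library). The 1 above was miR-155-5p (114 reads in the STZ library and 51 in the Control library under its human name), which with its mouse-named entry summed to 135 reads in the STZ library and 84 in the Control library, a ratio of 1.16 whose interval (0.874 to 1.54) included 1, so that none was above. All 3 liver miRNAs lay below 1 (median -1.77, 0.0870% in the STZ library and 0.312% in the Control library). No marker of these lists was at 0 in either library. For 5 smooth muscle and fibroblast miRNAs, 3 lay below and 1 above (median -0.17), and for 5 cardiomyocyte miRNAs 2 below and 3 above (median 0.10, 31.5% in the STZ library and 28.1% in the Control library), with miR-208b-3p at 0 in the Control library. The part of blood, or of the cells and tissue carried along with the mitochondria, in the levels of miR-126, miR-221 and miR-222 was not tested. In such bulk RNA, fewer cells of a type and less RNA per cell cannot be told apart.

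Other miRNAs linked to vessel growth lay in both directions. Of 23 on that list, 20 reached 20 summed reads, and 10 had an interval below 1 and 5 above (4 when human-named and mouse-named entries were summed, without miR-155-5p), with a median log2 ratio of -0.14, beside 33.5% of all named miRNAs below and 32.0% above. The listed strands of the miR-23/27/24 clusters were split. Below 1 lay miR-24-3p at a ratio of 0.686 (0.669 to 0.704), miR-23b-3p at 0.866 (0.838 to 0.895) and, only just, miR-23a-3p at 0.973 (0.949 to 0.998). Above 1 lay miR-27a-3p at 1.25 (1.20 to 1.31) and miR-27b-3p at 1.16 (1.13 to 1.20). The lowest and highest ratios among the 20 were those of miR-503-5p and miR-130a-3p. miR-503-5p, an inhibitor of endothelial growth, had 4 reads in the STZ library and 25 in the Control library when its human-named and mouse-named entries were summed (ratio 0.115, 0.0291 to 0.333, with 1 STZ read under the human name). miR-130a-3p, which represses antiangiogenic homeobox genes in endothelial cells, had 53 reads in the STZ library and 4 in the Control library (ratio 9.53, 3.51 to 36.2). Also above 1 was miR-218-5p, with 854 reads in the STZ library and 311 in the Control library (ratio 1.974, 1.732 to 2.255). Also below 1 was miR-132-3p, with 38 and 68 reads (ratio 0.402, 0.263 to 0.606). No direction of vessel growth was read from these picked members.

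Finally, the named miRNAs nearest to each strand in log2 ratio were looked up among the 67 with at least 1000 reads, over these 2 libraries only. For miR-126-3p they were miR-322-3p (ratio 0.617), miR-16-5p (0.679) and miR-24-3p (0.686), at distances of 0.05, 0.09 and 0.10. miR-126-5p was nearest to let-7a-3p (0.801), miR-486-5p (0.810) and miR-221-3p itself. For miR-221-3p the nearest were miR-22-3p (0.790), miR-103a-3p (0.784) and let-7a-3p, and for miR-222-3p they were miR-335-5p (0.585), miR-322-3p and miR-126-3p, at 0.03, 0.05 and 0.10.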

How the data were processed

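Small RNA of heart mitochondria was sequenced from 1 STZ and 1 Control library, grouped by the titles in the labels. Per the labels' protocols, adapters were ligated to both RNA ends before PCR and gel purification. Per the submitters' processing notes the genome build was GRCm39. Which aligner, miRNA reference and trimmer were used is not given in the sources used here. Per entry, the authors deposited a normalized signal, headed TPM in the Control sheet, which sums to 1000000, and 1 nameless row, the sum of the 66 rows above it (96.6% of the STZ and 96.5% of the Control total), was left out of library sizes and counts. Values were whole multiples of 1 read: dividing by that step gave whole reads, within 0.001 of a read, for 100.0% of values in both libraries. The count model edgeR could not be fitted, with 1 library per group and no residual degrees of freedom. Ratios carry exact conditional binomial (Clopper-Pearson) intervals, arm and member ratios exact intervals of the odds ratio, shares Wilson intervals and levels exact Poisson intervals, all at 95%. In lists and arms, the higher of a human-named and a mouse-named entry was used where both had the same strand name. Mouse-named miR-486a therefore stayed a separate precursor beside miR-486. A miRNA counted as lower or higher when its interval excluded 1, at 20 reads or more over both libraries. Named were all members, the 3 nearest miRNAs in log2 ratio at 1000 reads or more, the neighbours in level, and list members that a result turns on. miR-503-5p, miR-130a-3p, miR-218-5p, miR-132-3p, miR-27a-3p, miR-27b-3p, miR-23a-3p and miR-23b-3p were named after their values were seen. The members and lists were chosen with earlier results of these data known. Alternatives changed scaling (edgeR 4.0.16 TMM, DESeq2 1.42.0), minimum reads, fold, pseudocount and entries. Scripts ran in Python 3.11.15 with scipy 1.17.1 and R 4.3.3. The intervals were tested on simulated reads drawn with the Poisson error that they assume. The simulation held no amplification copies and no spread between libraries, so it could not check for either.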

Additional observations from a re-analysis of the deposited data

How the results depend on the processing

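No paired analysis was possible because STZ and Control comprise a single library each, and for the same reason no library could be left out. TMM, median-of-ratios and totals without the 10 most abundant miRNAs shifted every log2 ratio by 0.00865, 0.00895 and -0.00701. Over these, summed entries and a pseudocount of 1 RPM, the ratio of miR-126-3p ran from 0.636 to 0.643, miR-126-5p from 0.800 to 0.809, miR-221-3p from 0.786 to 0.795, miR-222-3p from 0.595 to 0.601, miR-222-5p from 1.83 to 1.88 and miR-221-5p from 4.04 to 4.58, each within its interval. The 92 lower and 88 higher named miRNAs became 37 and 42 when a 2-fold ratio was also asked, 62 and 51 at 100 reads, and 128 and 119 with no minimum. Summing human-named and mouse-named entries in the lists, chosen after the data were seen, took the leukocyte members above 1 to 0 (miR-155-5p was lost) and those of the vessel growth list to 4. The vessel growth members below 1 went from 10 to 9 under TMM and under median-of-ratios scaling. Those of the smooth muscle and fibroblast list went from 3 to 2 under median-of-ratios scaling. Precursors that differed toward 5p and 3p numbered 7 and 3 at 100 reads per arm and 21 and 7 at 20 reads. The low counts of the 5p strands, 3 reads of miR-221-5p in the Control library, set the limit on the arm ratios of miR-221 and miR-222.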
